A study of Rattus norvegicus with 6 samples.

Results

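Expression in H9c2 cells carrying a BMPR2 kinase domain mutant was compared with that in H9c2 cells carrying an empty vector. H9c2 is a myoblast line from embryonic rat heart. The libraries were chosen by their titles, 2 for each group, which is 4 of the 6 libraries of the series. The remaining 2 libraries, from cells with a BMPR2 tail domain mutant, entered the fit that estimates the spread. Their values are given beside single genes and sets of genes. Of 26404 genes in the files, 12091 had 10 or more counts in at least 2 of the 4 libraries and were tested.

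The design text describes cells without the kinase domain, whereas the titles speak of a mutant. The labels do not state how the mutant was introduced, whether endogenous Bmpr2 was still expressed, or whether the cells were clonal or pooled. No treatment or time point is named. The replicates may be technical, since nothing says that they came from separate cultures, and p-values then measure only the spread between these libraries.

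BMPR2 serves bone morphogenetic proteins (BMPs) as a type II receptor. On ligand binding its constitutively active serine/threonine kinase phosphorylates a type I receptor, which in turn phosphorylates the receptor Smads that carry the signal to the nucleus. Its long cytoplasmic tail binds regulators of the cytoskeleton, and mutations in either region occur in heritable pulmonary arterial hypertension. The comparison asks how expression differs where the kinase region is altered.

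The files give Ensembl rat gene identifiers without names, and 0 of the 26404 identifiers were matched to a symbol. For this reason the level of Bmpr2, the BMP pathway genes and the muscle markers of the line were not examined here, and single genes are given by identifier only, the 2 of smallest p in each direction. The 2 empty vector libraries held 24936136 and 20291259 counts in genes, and those of the kinase mutant held 21465330 and 21933354. Levels are counts per 1000000 counts in genes (CPM), scaled by edgeR's TMM factors. A floor of 3 counts, used in place of lower counts, corresponds to between 0.111 and 0.149 CPM. This floor and the intervals below cover counting error only.

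ENSRNOG00000006052 was nearly lost in the kinase mutant. It had 3603 and 4879 counts in the empty vector libraries and 4 and 5 counts in the kinase mutant libraries. Those counts correspond to 133 and 238 CPM against 0.199 and 0.243 CPM. The groups lay far apart, since even the 95% exact Poisson intervals of the kinase mutant libraries reached only 0.509 and 0.567 CPM. The mean fell from 186 ± 73.8 CPM to 0.221 ± 0.0312 CPM (SD, n = 2), a ratio of 839. The log2 change was -9.67 ± 0.46 (SE), and the Benjamini-Hochberg adjusted p over 12091 genes was 0.00543 by edgeR's quasi-likelihood test. This was the 1 gene called at an adjusted p below 0.05, or 0.00827% of the genes tested, and 0 genes were called higher.

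The call of ENSRNOG00000006052 did not hold under every alternative. Its adjusted p in edgeR was 0.0638 with only the 4 libraries compared, 0.0621 without tail mutant replicate 1, 0.0600 without tail mutant replicate 2, 0.221 without kinase mutant replicate 1 and 0.215 without kinase mutant replicate 2. With limma-voom it was 0.159 (Benjamini-Hochberg), while the log2 change lay between -10.03 and -9.20 under every alternative run.

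ENSRNOG00000033458 was the other gene of smallest p among those lower in the kinase mutant. Its counts were 193 and 197 in empty vector and 0 and 0 in the kinase mutant. The empty vector libraries stood at 7.14 and 9.60 CPM. In the kinase mutant libraries the floor of 3 counts corresponds to 0.149 and 0.146 CPM. With that floor, the lower empty vector library was 47.9-fold above the upper kinase mutant library. The exact Poisson intervals of the 0 counts reached higher, to 0.184 and 0.179 CPM, and so allow a smaller ratio. It did not pass in edgeR (Benjamini-Hochberg adjusted p of 0.163) and passed in DESeq2 (1.50e-07) and in edgeR with no filter on low counts (0.0113), with adjusted p-values up to 0.995 over the alternatives.

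The genes of smallest p among those higher in the kinase mutant differed far less in size, but their replicates lay close together. Ranking by p favors genes with close replicates, so this closeness follows in part from the choice. ENSRNOG00000000827 was at 47.7 and 49.4 CPM in empty vector and at 125 and 124 CPM in the kinase mutant. The gap between groups was many times the gap within either, and the mean stood 2.56-fold higher, a log2 difference of 1.36 ± 0.15 (SE). ENSRNOG00000013391 was at 64.0 and 72.8 CPM in empty vector and at 199 and 201 CPM in the kinase mutant, a mean 2.92-fold higher and a log2 difference of 1.55 ± 0.19 (SE). Neither passed in edgeR, where both had a Benjamini-Hochberg adjusted p of 0.215. Both passed in DESeq2, at 1.23e-12 for ENSRNOG00000000827 and 4.08e-10 for ENSRNOG00000013391, and over the other alternatives their adjusted p-values ranged up to 0.995.

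**Figure D1:**
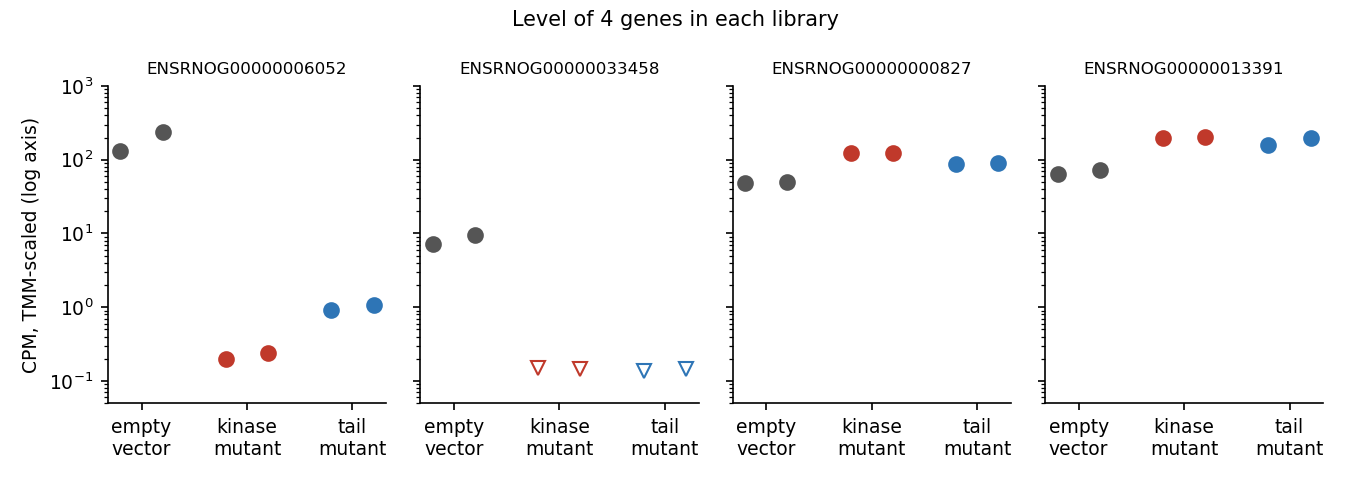
Each point is 1 library, with TMM-scaled CPM on a log axis, and open triangles mark libraries with 3 counts or fewer, drawn at the CPM of 3 counts. ENSRNOG00000006052 and ENSRNOG00000033458 are high only in the 2 empty vector libraries of the 6 shown, whereas ENSRNOG00000000827 and ENSRNOG00000013391 are lowest there.

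The tail mutant shares the empty vector libraries as its reference, so its values are given side by side and not as separate evidence. ENSRNOG00000006052 had 20 and 22 counts there, or 0.912 and 1.07 CPM, above both kinase mutant libraries. ENSRNOG00000033458 had 2 and 1 counts. ENSRNOG00000000827 stood at 87.4 and 89.4 CPM, between empty vector and the kinase mutant without overlap with either. ENSRNOG00000013391 stood at 158 and 199 CPM, so that the upper tail mutant library was almost level with the kinase mutant.

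Tested directly in edgeR, none of these 4 genes passed between the mutants after adjustment over 12091 genes. For ENSRNOG00000006052 the kinase mutant minus the tail mutant was -2.13 ± 0.51 (SE) on the log2 scale, and for ENSRNOG00000000827 it was 0.49 ± 0.15 (SE), each with a Benjamini-Hochberg adjusted p of 0.922 in edgeR. The adjusted p was also 0.922 for ENSRNOG00000033458, whose counts in the 4 mutant libraries were all 2 or fewer. For ENSRNOG00000013391 the difference was 0.16 ± 0.18 (SE), with an edgeR adjusted p of 0.925. Over all 12091 genes edgeR called 0 between the mutants, with 451 (3.73%) at an unadjusted p below 0.05. DESeq2 called 12 (0.0992%). Limma-voom made 0 calls and left 397 genes (3.28%) at an unadjusted p below 0.05. A p above the threshold does not show that the mutants act alike.

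Beyond single calls, differences were counted by size. A gene was counted as 2-fold apart when its lowest CPM in one group was at least 1 and at least 2 times its highest CPM in the other, with counts under 3 raised to 3. By this measure, which carries no test, 125 genes were higher in the kinase mutant (1.03% of those tested) and 155 were lower (1.28%), together 280 (2.32%). Both kinase mutant libraries lie on the same side of both empty vector libraries for each of these genes by construction. Of the 280, edgeR had 117 of the higher and 142 of the lower at an unadjusted p below 0.05, and DESeq2 called 83 of the higher and 94 of the lower. The 280 were picked from the same counts, so these p-values and calls are not separate evidence.

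Larger differences were more often on the lower side. At least 4-fold apart were 19 higher genes (0.157%) and 68 lower genes (0.562%), and at least 8-fold apart 5 higher (0.0414%) and 32 lower (0.265%). The direction at 2-fold depended on the level. With a minimum of 5 CPM in place of 1 CPM in the higher group, 75 genes were higher and 64 lower, together 139. Leaving out empty vector replicate 1 gave 777 genes in place of 280, of which 480 were lower. Leaving out empty vector replicate 2 gave 397, of which 212 were lower. Leaving out replicate 1 of the kinase mutant gave 580, of which 342 were lower, and leaving out its replicate 2 gave 730, of which 345 were lower. Fewer libraries are an easier criterion, and the gap between the counts without either empty vector replicate was not tested.

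**Figure D2:**
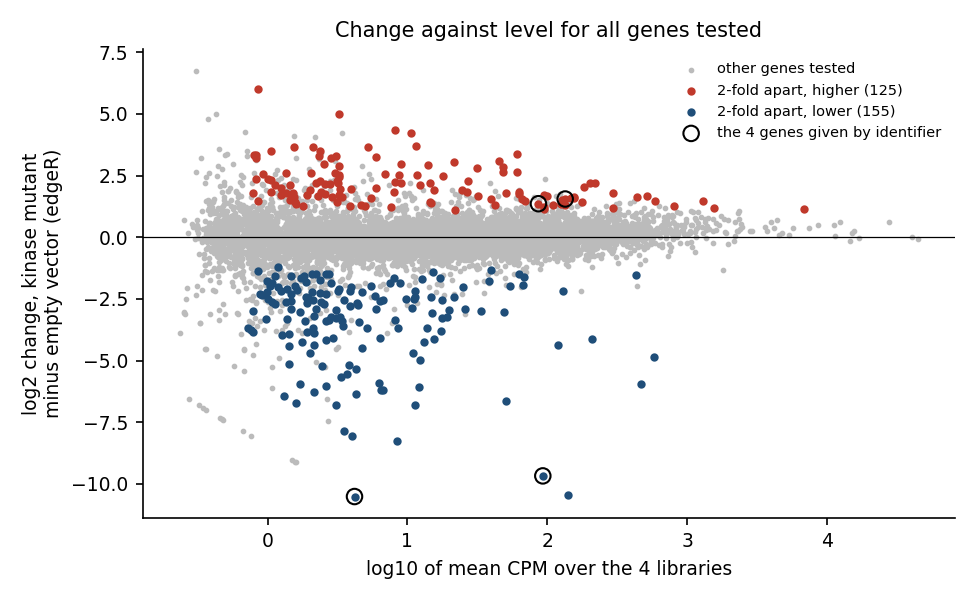
Each point is 1 of the 12091 genes tested, with the log10 of its mean CPM over the 4 libraries on the x axis and edgeR's log2 change, kinase mutant minus empty vector, on the y axis. The 125 red points and 155 blue points are the genes 2-fold apart, and the blue points reach farther from 0 than the red ones.

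The 155 lower genes were mostly weakly expressed in empty vector. Their median was 3.96 CPM in empty vector replicate 1 and 6.97 CPM in replicate 2, against 0.696 and 0.632 CPM in the kinase mutant libraries. Of the scaled counts they took 0.346% and 0.850% in empty vector, against 0.0696% and 0.0704% in the kinase mutant. In the tail mutant libraries the medians were 0.729 and 1.16 CPM, and the shares were 0.0741% and 0.105%. Low levels of this set were thus not particular to the kinase mutant. The empty vector replicates were unequal in these genes. Replicate 2 was above replicate 1 in 129 of the 155, and more than 2-fold above it in 64, whereas replicate 1 was more than 2-fold above replicate 2 in 3. Between the kinase mutant replicates 53 differed more than 2-fold, 31 of them higher in replicate 1. The part of that difference in the result was not tested.

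Some of the losses reached the counting floor. Of 12091 genes, 18 had at most 3 counts in both kinase mutant libraries and at least 1 CPM in both empty vector libraries. The empty vector levels of these 18 genes had a median of 2.0 CPM in replicate 1 and 6.43 CPM in replicate 2, the highest being 8.48 and 24.9 CPM. The tail mutant libraries were also low in most of them, with medians of 0.0912 and 0.0970 CPM. Their highest levels were 2.42 and 25.7 CPM. The kinase mutant medians were 0.0497 and 0.0486 CPM. With counts under 3 raised to 3, the ratio of the lower empty vector library to the upper kinase mutant library ran from 7.44 to 56.8, with a median of 13.4. All 18 had an unadjusted p below 0.05 in edgeR, 16 were called by DESeq2 and 0 by edgeR after adjustment. The 18 were picked from these same counts, so their p-values and calls are not separate evidence. Replicate 2 of empty vector was above replicate 1 in 18 of 18.

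Only 1 of the 12091 genes showed the opposite pattern. It had at most 3 counts in both empty vector libraries and 1.14 and 2.24 CPM in the kinase mutant. Before any filter, 13 of 26404 genes had 0 counts in both kinase mutant libraries and 10 or more in both empty vector libraries. The other way round there was 1 gene.

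The 125 higher genes spanned a wider range of levels. Their median was 2.70 and 1.66 CPM in the empty vector libraries and 10.7 and 10.4 CPM in the kinase mutant libraries, and their highest levels were 4517 and 3925 CPM in empty vector and 9593 and 9148 CPM in the kinase mutant. Together they took 0.949% and 0.859% of the scaled counts in empty vector and 2.41% and 2.23% in the kinase mutant. The tail mutant libraries lay between, with medians of 6.29 and 4.41 CPM and shares of 1.97% and 1.30%. The empty vector replicates were unequal here too, in the opposite sense to the lower genes. Replicate 1 was above replicate 2 in 95 of the 125 and more than 2-fold above it in 26, and replicate 2 was more than 2-fold above replicate 1 in 0. Between the kinase mutant replicates 20 differed more than 2-fold, 13 of them higher in replicate 1. The part of these differences in the result was not tested. The largest differences on this side were smaller than on the lower side. The 5 genes at least 8-fold higher had between 1.74 and 21.5 CPM in the kinase mutant libraries and between 0.146 and 1.74 CPM in empty vector, and the ratio of the lower kinase mutant library to the upper empty vector library ran from 8.36 to 24.5.

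**Figure D3:**
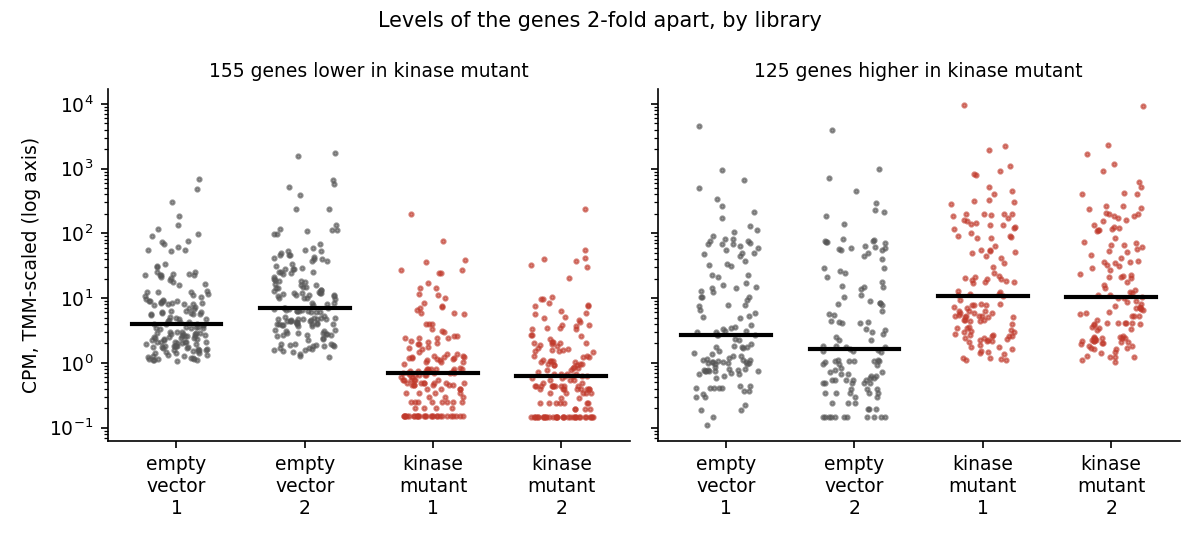
Points are the 155 genes lower (left) and the 125 genes higher (right) in the kinase mutant, in each of the 4 libraries, with TMM-scaled CPM on a log axis, counts under 3 drawn at 3, and black bars at the medians. Lower genes have medians of 3.96 and 6.97 CPM in empty vector, and higher genes have medians of 10.7 and 10.4 CPM in the kinase mutant.

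Direction changed with the level of expression. Among the 2956 genes with a mean of 1 to 10 CPM over the 4 libraries, 62 were 2-fold higher (2.10%) and 104 were 2-fold lower (3.52%). Among the 6577 genes at 10 to 100 CPM the counts were nearly equal, 33 higher and 34 lower. Among the 1674 genes at 100 to 1000 CPM, 19 were higher (1.14%) and 7 lower (0.418%), and among the 80 genes over 1000 CPM, 3 were higher and 0 lower. DESeq2 calls leaned the same way at high levels, with 72 higher and 18 lower at 100 to 1000 CPM and 12 higher and 0 lower over 1000 CPM. At 10 to 100 CPM DESeq2 called 90 higher and 65 lower, unlike the nearly equal 2-fold counts. At 1 to 10 CPM it called 35 higher and 71 lower. The levels that define these classes come from the same libraries, and the leaning was not tested.

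**Figure D4:**
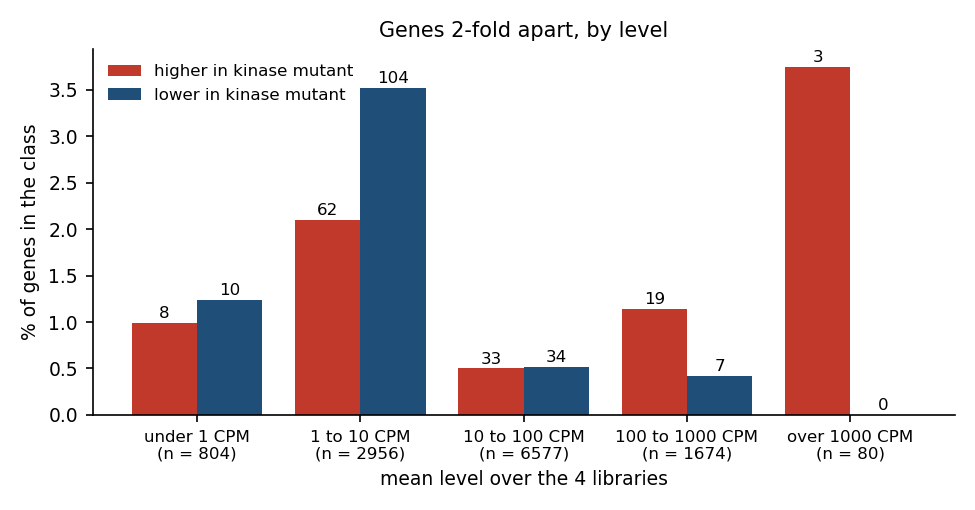
Bars give the share of genes in each class of mean CPM that were 2-fold apart, higher (red) or lower (blue) in the kinase mutant, with the number of genes above each bar. Lower genes lead at 1 to 10 CPM (104 against 62) and higher genes lead at 100 to 1000 CPM (19 against 7).

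For most genes the group difference was of the size of the replicate difference. At 10 to 100 CPM the median absolute log2 change between groups was 0.21, against 0.18 between the empty vector replicates and 0.20 between the kinase mutant replicates. A difference between means of 2 libraries varies less than one between single libraries, so equal medians are not equal evidence. At 100 to 1000 CPM the median was 0.25 between groups and 0.19 within each, and over 1000 CPM it was 0.40 between groups, 0.22 within empty vector and 0.33 within the kinase mutant.

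The distance between groups differed with the library. Counting genes at least 2-fold different, with at least 1 CPM in the higher library, the empty vector replicates differed in 647 genes and the kinase mutant replicates in 841. Empty vector replicate 1 differed from kinase mutant replicate 1 in 1077 genes and from replicate 2 in 809, fewer than the kinase mutant replicates from each other. Empty vector replicate 2 differed from them in 1455 and 1328 genes. The distance to the kinase mutant was thus largest from empty vector replicate 2.

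**Figure D5:**
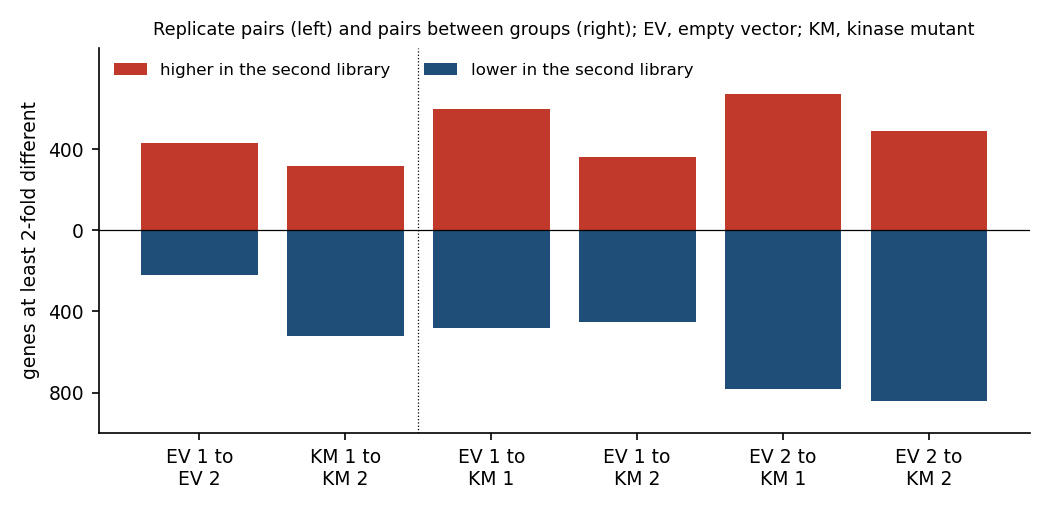
Bars above 0 count genes at least 2-fold higher, and bars below 0 genes at least 2-fold lower, in the second library of each pair. The 2 pairs left of the dotted line are replicates (647 and 841 genes in all), and the pairs with empty vector replicate 2 on the right reach 1455 and 1328 genes.

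Across all genes tested, edgeR had 643 genes higher (5.32%) and 696 lower (5.76%) in the kinase mutant at an unadjusted p below 0.05, together 11.1% of those tested, where 5% would fall below it with no difference. Their fitted changes were of like size in both directions, with medians of 0.89 and -0.89 on the log2 scale. At an unadjusted p below 0.001 there were 22 higher (0.182%) and 18 lower genes (0.149%). Limma-voom called 0 genes after adjustment and had 1299 (10.7%) at an unadjusted p below 0.05. DESeq2 called 212 genes higher (1.75%) and 157 lower (1.3%) with Benjamini-Hochberg adjustment. In edgeR's fit, the genes DESeq2 called higher had a median log2 change of 1.17 and those it called lower -2.55. At an unadjusted p below 0.05, leaving out empty vector replicate 2 lowered edgeR's 1339 genes to 498, and leaving out replicate 1 of the kinase mutant lowered them to 699.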

How the data were processed

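The authors deposited raw counts of reads for each Ensembl gene, with a file for each library. Trimmomatic 0.33, STAR 2.4.0, HTSeq 0.6.1p1 and the build Rnor_5.0 are listed in the submitters' processing notes. The annotation release is not stated in the labels, nor is the strand setting, so a gene and its antisense partner cannot be told apart. The 5 rows of each file that name no gene were left out. In the 4 libraries, between 15.4% and 17.4% of the counts over all rows, these 5 included, were in no annotated gene. Between 27.3% and 31.5% were counted as not uniquely aligned, which lowers the counts of genes with close copies.

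Genes were kept with 10 or more counts in at least 2 of the 4 libraries. Counts were fitted in R 4.3.3 with edgeR 4.0.16 (TMM, robust quasi-likelihood, group as the only term) over all 6 libraries, with 3 residual degrees of freedom and a median of 3.29 prior degrees of freedom. P-values were adjusted by Benjamini-Hochberg over all genes tested. The common biological coefficient of variation was 27.6%. DESeq2 1.42.0 and limma-voom in limma 3.58.1 were alternatives. The fits were tested on simulated data. Replicates differed beyond sampling noise, for which the chi-square per gene averages about 1: it averaged 59.8 for empty vector and 94.1 for the kinase mutant, so no libraries were merged.

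The RefSeq table at hand (GRCr8) lists 47357 rat genes and an Ensembl identifier for 0 of them. The rule for single genes therefore took the 2 identifiers of smallest p in each direction, and the 34 gene and marker lists drawn up were not used. The comparison, the lists and the measures were chosen with earlier results of these data known. No sequence or position is given, since none could be joined to an identifier.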

Additional observations from a re-analysis of the deposited data

Results flagged for a closer look

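Reads outside annotated genes do not enter the comparison, and their share was above both empty vector libraries in each kinase mutant library. The kinase mutant libraries had 17.4% and 16.1% against 15.4% for both empty vector libraries, as a percentage of all rows of a file, with means of 16.7% ± 0.893 against 15.4% ± 0.0158 (SD, n = 2). Among uniquely aligned reads the kinase mutant libraries had 23.9% and 22.6% against 22.5% and 21.3% for empty vector, with means of 23.2% ± 0.951 against 21.9% ± 0.834 (SD, n = 2). The 2 tail mutant libraries were also above both empty vector libraries, at 16.2% and 17.5% of all rows and at 23.0% and 25.3% of uniquely aligned reads. By the second measure the nearest libraries of the kinase mutant and empty vector were almost level.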

How the results depend on the processing

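The 1 gene that edgeR called against empty vector became 369 with DESeq2 (212 higher and 157 lower), 2 with no filter on low counts, 0 with limma-voom and 0 with only the 4 libraries compared. It became between 0 and 2 when each library in turn was left out, and stayed 1 with median-of-ratios scaling and with filterByExpr. Where a group kept 1 library, that library was assumed to vary like the other groups. Genes at an unadjusted p below 0.05 ranged from 498 to 1836. Of the 4 genes given by identifier, 4 passed with DESeq2, 2 with no filter, 0 with limma-voom, 0 with only the 4 libraries compared and between 0 and 1 with a library left out, and their direction did not change in any of the 14 alternatives. Between the mutants DESeq2 called 12 genes and each other alternative 0. The 280 genes 2-fold apart became 139 with a minimum of 5 CPM and 87 at 4-fold, and between 397 and 777 with a library left out. The cause of these changes was not tested, apart from the easier criterion that fewer libraries or a lower fold give.

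The replicate numbers in the titles are not said to mark a shared culture or day, so the samples share only a number. The replicates' deviations correlated across genes at -0.12 between empty vector and kinase mutant. With the replicate number as a block edgeR called 2 genes, both lower, and 1 of the 4 genes given by identifier. With the kinase mutant numbers crossed, an alternative chosen after seeing the data, it also called 2. Depth sets a floor of 0.111 to 0.149 CPM per library, below which levels were not detectable.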
